A study of Mus musculus with 8 samples.

Results

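The 10 genes described here encode the BCL2 family proteins that decide whether a cell keeps its mitochondrial outer membrane intact: the survival members Mcl1, Bcl2, Bcl2l1 (BCL-XL) and Bcl2a1b (a mouse copy of A1), the effectors Bax and Bak1, and the BH3-only members Bid, Bcl2l11 (BIM), Bmf and Pmaip1 (NOXA). They are a list of names grouped by these roles, drawn up with earlier results of these data known and with no threshold on a measured value, and they are 10 of the 27179 genes in the deposited count table. All 10 passed the filter on low counts and are among the 15073 genes tested. The libraries came from plasma cells of C57BL/6 mouse bone marrow, sorted for a Blimp1-GFP reporter and the surface protein CD138, and all groups were sorted on both. Wild-type (WT) cells gave 4 libraries, replicates 1 and 2 in batch 1 and replicates 3 and 4 in batch 2. Cells with the genotype Blimp1-/- gave 2 libraries in batch 1, and cells with the genotype Xbp1-/- gave 2 in batch 2, so each knockout was set against the 2 WT libraries of its own batch. The age of the mice and the way the genes were deleted are not stated in the labels. Names of the deposited files carry CreER for all batch 2 libraries, with fl for Xbp1-/- and pos for WT. In batch 1 they carry plus and minus, or pos and neg, for WT, and fl and minus, or neg, for Blimp1-/-. The labels do not explain these terms, so whether WT cells carried a Cre or a single altered allele cannot be told here. Nothing in the labels ties a library to an animal, so p-values measure the spread between these samples only.

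Survival members of the family hold the effectors and the BH3-only proteins in check by binding them. BH3-only proteins are raised or activated by stress and damage, and they free or switch on BAX and BAK, which then open the outer membrane and release cytochrome c to the apoptosome and caspases. Long-lived plasma cells of the bone marrow are known for their need of MCL1, which is sustained by signals through the receptor BCMA (encoded by Tnfrsf17). Blimp1 (encoded by Prdm1) and Xbp1 are transcription factors of the plasma cell: Blimp1 represses and activates target genes, and Xbp1 drives the secretory and unfolded protein response genes.

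The libraries held 44012152 to 145411827 counts, of which 25.2% to 75.7% fell on immunoglobulin genes. Values by sample are CPM (counts scaled to a common library total) on library sizes scaled by the trimmed mean of M-values (TMM), whose factors ran from 0.564 to 2.11. Plasma cell markers were present in every library, with 9 of the 10 listed names tested and none at 0. Their summed CPM was 119367 and 110826 in batch 1 WT and 58921 and 72622 in Blimp1-/-. In batch 2 it was 68205 and 50515 in WT and 40575 and 32539 in Xbp1-/-. Igj alone had a mean of 108044 CPM in batch 1 WT, 61087 in Blimp1-/-, 54067 in batch 2 WT and 32693 in Xbp1-/-. Sdc1 had means of 562, 392, 352 and 587 CPM in the same order of groups. The summed CPM of 8 B cell markers was 519 and 494 in batch 1 WT, 903 and 1267 in Blimp1-/-, 465 and 401 in batch 2 WT, and 754 and 683 in Xbp1-/-. In batch 1 the summed CPM of 11 neutrophil and monocyte markers was 308 and 406 in WT and 468 and 250 in Blimp1-/-. In batch 2 it was 5.52 in WT replicate 3 and 585 in WT replicate 4. It was 2.19 in Xbp1-/- replicate 1 and 1395 in Xbp1-/- replicate 2. The 6 erythroid markers followed the same split in batch 2, with sums of 19.7 and 203 in WT and 5.27 and 660 in Xbp1-/-. In batch 1 the erythroid sums were 17.6 and 104 in WT and 18.8 and 95.8 in Blimp1-/-. T and NK cell markers summed to 18.5 to 50.3, dendritic cell markers to 3.72 to 25.4, and stromal and endothelial markers to 32.2 to 302. In Xbp1-/- replicate 1, Cd3e, Cd3d, Cd8a, Ncr1 and Nkg7 of the 8 T and NK cell markers and Cxcr2 of the neutrophil markers were at 0. The Blimp1-/- replicates differed by gene length: replicate 2 minus replicate 1 had a median log2 difference of 0.48 in genes of at most 1537 bases and of -0.50 in genes of at least 4067 bases, while the other pairs lay between -0.11 and 0.00 in both classes. Prdm1 was at 243 and 176 CPM in Blimp1-/- against 301 and 306 in its WT, and Xbp1 at 1302 and 1105 CPM in Xbp1-/- against 2129 and 2203. These counts cover the whole gene and so do not test the labels, since which exons were removed is not given in the sources used here.

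Promoters of 9 of the 10 members were found in the RefSeq table (build GRCm38.p6), with 14 start sites in all, and Pmaip1 was not searched. The 250 bases before each start were searched on both strands for GAAAGTG (a Blimp1 type core), TGACGT and CCACG (cores of XBP1 and unfolded protein response elements) and CACGTG (an E-box, whose matches may overlap a CCACG match). Among 32851 promoters, GAAAGTG was present in 4.01%, TGACGT in 6.47%, CCACG in 28.34% and CACGTG in 6.02%. The windows below are shown because Bcl2l1 is the member that differed in both knockouts, because Bmf had a GAAAGTG match, which the other 8 members searched did not, and because Mcl1 is the most abundant member and had no match. They are printed 5′ to 3′ on the gene's own strand, with matches in capitals. The Bcl2l1 window is chr2:152831729-152831978 (minus strand), the Bmf window chr2:118544588-118544837 (minus strand), and the Mcl1 window chr3:95658471-95658720 (plus strand). Each of these windows lies within the annotated span of its gene, before a start inside that span.
Bcl2l1: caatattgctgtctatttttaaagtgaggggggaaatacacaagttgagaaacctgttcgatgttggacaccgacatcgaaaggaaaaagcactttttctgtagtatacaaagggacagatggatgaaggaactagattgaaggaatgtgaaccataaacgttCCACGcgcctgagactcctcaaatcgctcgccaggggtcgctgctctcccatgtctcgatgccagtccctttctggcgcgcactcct
Bmf: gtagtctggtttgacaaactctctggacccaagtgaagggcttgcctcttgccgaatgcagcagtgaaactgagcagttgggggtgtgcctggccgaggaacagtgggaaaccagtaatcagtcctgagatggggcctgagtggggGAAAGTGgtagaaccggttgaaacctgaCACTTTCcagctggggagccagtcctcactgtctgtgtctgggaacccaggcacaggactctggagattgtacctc
Mcl1: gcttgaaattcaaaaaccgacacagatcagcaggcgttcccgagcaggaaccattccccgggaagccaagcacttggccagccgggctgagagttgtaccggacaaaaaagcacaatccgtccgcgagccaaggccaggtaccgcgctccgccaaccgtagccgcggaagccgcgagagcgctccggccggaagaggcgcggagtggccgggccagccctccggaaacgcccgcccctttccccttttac
The Bcl2l1 window held 1 CCACG and none of the other 3 motifs, and the windows of its other 2 starts held none of the 4. The Bmf window held GAAAGTG once on each strand, and the windows of its other 2 starts held no match. Among members not printed, Bcl2a1b and 1 of the starts of Bcl2l11 also held 1 CCACG. Bcl2 held 1 TGACGT and Bax 1 CACGTG, while Bak1 and Bid held no match. A match describes letters only, and no binding was measured in these samples.

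Mcl1 was by far the most abundant member per length. In RPKM (CPM divided by the deposited gene length in kilobases), Mcl1 was at 112 ± 4.96 (SD, n = 4 WT libraries), which placed it at percentile 97.2 of the genes tested. Bax followed at 22.3 ± 5.70, and its WT range of 16.6 to 27.5 did not overlap that of any other member. Bid (10.1 ± 1.70), Bak1 (8.67 ± 2.49), Bcl2 (8.32 ± 2.25) and Bmf (7.02 ± 1.73) formed the next steps, with ranges that overlapped those of their neighbours in this order. Bcl2l11 (5.36 ± 0.52), Pmaip1 (5.04 ± 1.88), Bcl2a1b (4.57 ± 2.29) and Bcl2l1 (4.34 ± 0.46) were the lowest, with overlapping ranges. Bcl2l1 lay at percentile 59.0 of all genes. The order of Bcl2l1 and Bcl2a1b reversed between the WT pairs: Bcl2l1 was at 4.39 ± 0.39 and Bcl2a1b at 6.54 ± 0.19 RPKM in batch 1 (SD, n = 2), against 4.30 ± 0.69 and 2.59 ± 0.06 in batch 2.

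In Blimp1-/- cells, 1 member fell and none rose at an adjusted p below 0.05, where 0.862% of all genes tested were called, 0.577% higher and 0.285% lower (edgeR's quasi-likelihood test, Benjamini-Hochberg adjusted over 15073 genes). The gene that fell was Bcl2l1. In Xbp1-/- cells, Bcl2l1, Bak1 and Bid rose and none fell, against 7.70% of all genes called, 2.63% higher and 5.06% lower. The survival gene Bcl2l1 thus changed in both knockouts, downward in Blimp1-/- and upward in Xbp1-/-. The plots of CPM by library and of the log2 effects show all 10 members.

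**Figure D1:**
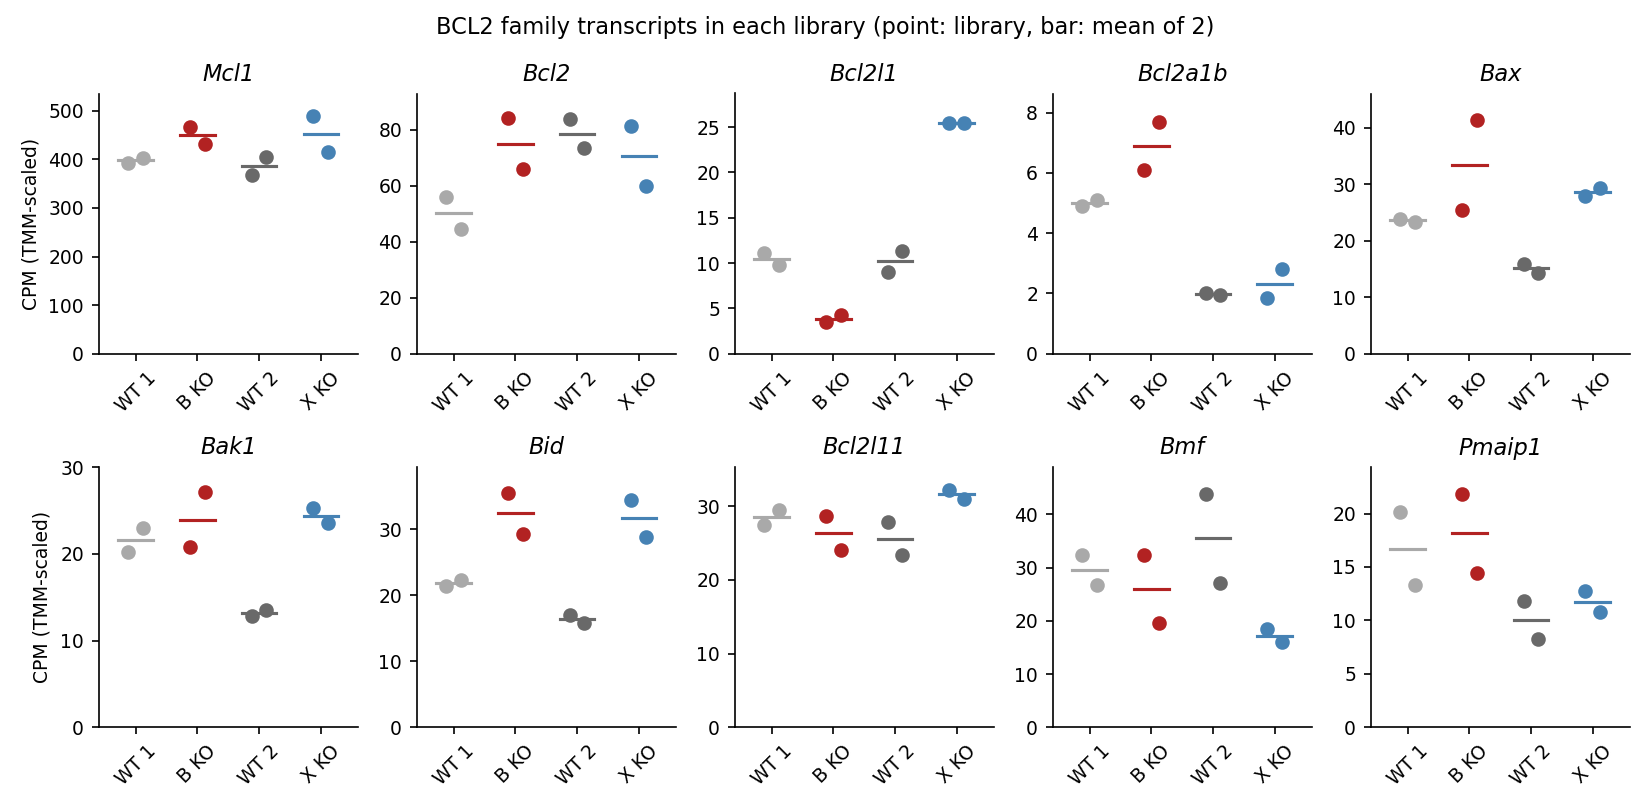
CPM (linear axis from 0) of each member in each of the 8 libraries; points are libraries and bars are means of 2, with WT 1 and WT 2 for the WT libraries of batch 1 and batch 2, B KO for Blimp1-/- and X KO for Xbp1-/-. Bcl2l1 lies at 9.03 to 11.3 in all 4 WT libraries, at 3.50 and 4.23 in Blimp1-/- and at 25.5 in both Xbp1-/- libraries.

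**Figure D2:**
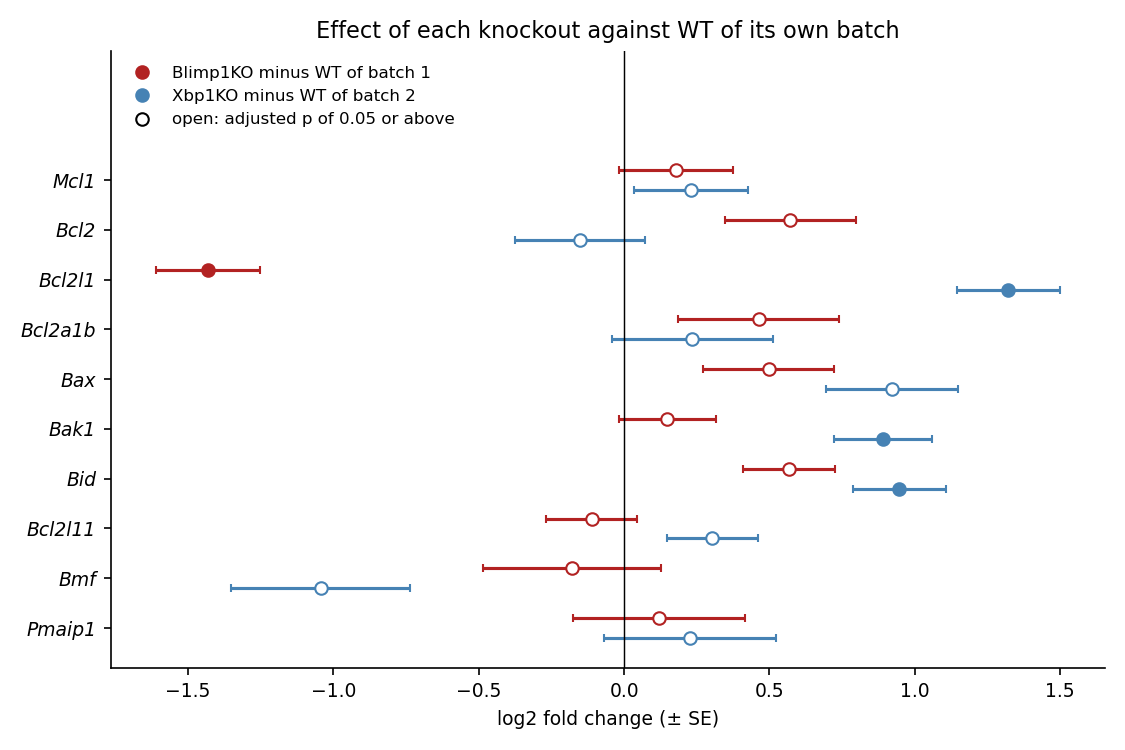
Log2 fold change ± SE of each member in Blimp1-/- and Xbp1-/- against WT of the same batch (x axis), with members on the y axis and filled points for an adjusted p below 0.05. Filled points are Bcl2l1 in both knockouts, at -1.43 and 1.32, and Bak1 and Bid in Xbp1-/-, at 0.89 and 0.95.

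Among the survival members, Bcl2l1 encodes BCL-XL, which lies on chromosome 2 (GRCm38.p6, 152758732 to 152833803; gene ID 12048). It was at 11.1 and 9.77 CPM in batch 1 WT, 3.50 and 4.23 in Blimp1-/-, 9.03 and 11.3 in batch 2 WT, and 25.5 in each Xbp1-/- library. The groups did not overlap in either comparison, and the 4 WT libraries lay together across the batches (log2 difference of batch 2 from batch 1 WT -0.03 ± 0.18 SE, adjusted p = 0.920). The level in Blimp1-/- was 2.70-fold lower on means of 3.86 ± 0.52 and 10.4 ± 0.92 CPM (SD, n = 2 each; log2 fold change -1.43 ± 0.18 SE, adjusted p = 0.0324). In Xbp1-/- it was 2.50-fold higher, on means of 25.5 ± 0.007 and 10.2 ± 1.63 CPM (log2 fold change 1.32 ± 0.18 SE, adjusted p = 0.00817). The counts behind these values were 256 to 4762 per library, and no other annotated gene shares exonic bases with Bcl2l1. In bulk samples such as these, fewer cells of a type and less RNA per cell cannot be told apart.

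The difference between the 2 effects on Bcl2l1 was tested directly. The Blimp1-/- effect minus the Xbp1-/- effect was -2.75 ± 0.25 on the log2 scale (adjusted p = 0.00943), and Bcl2l1 was the only member of the 10 called in this test, where 1.68% of all genes were called, 1.17% higher and 0.511% lower. Estimates kept their sign in all 18, 17 and 16 alternatives run for the Blimp1-/- effect, the Xbp1-/- effect and their difference, and the call held in 11, 14 and 13 of them. The Blimp1-/- call was lost with limma-voom (adjusted p = 0.0534), with the batch 1 libraries alone (0.116), and without WT replicate 1 (-1.33, 0.266), 2 (-1.52, 0.165), 3 (-1.43, 0.0675) or 4 (-1.43, 0.0623). The Xbp1-/- call was lost without WT replicate 3 (1.16, adjusted p = 0.0725) and without Xbp1-/- replicate 1 (1.25, 0.0527), and the call of the difference without WT replicate 1 (-2.65, 0.0649) or 2 (-2.83, 0.058). Leaving out WT replicate 4 and Xbp1-/- replicate 2, the batch 2 libraries high in neutrophil and erythroid markers, gave -1.39, 1.49 and -2.87 for the 3 values, with adjusted p = 0.0929, 0.133 and 0.0776. Within Xbp1-/-, Bcl2l1 was at 25.5 CPM in the library with neutrophil markers at 2.19 CPM and in the library with them at 1395. The part of neutrophil and erythroid markers in the Bcl2l1 results was not tested. The B cell marker sum was higher in both knockouts than in their WT, but its members did not move as one. In Xbp1-/- the mean of Cd79b was 564 CPM against 297 in WT, Ms4a1 92.4 against 88.0 and Cd22 5.74 against 8.85. In Blimp1-/- the mean of Cd79b was 723 CPM against 374 in WT, Ms4a1 263 against 97.1 and Cr2 0.584 against 1.485. The part of B cell markers in either Bcl2l1 result was not tested.

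**Figure D3:**
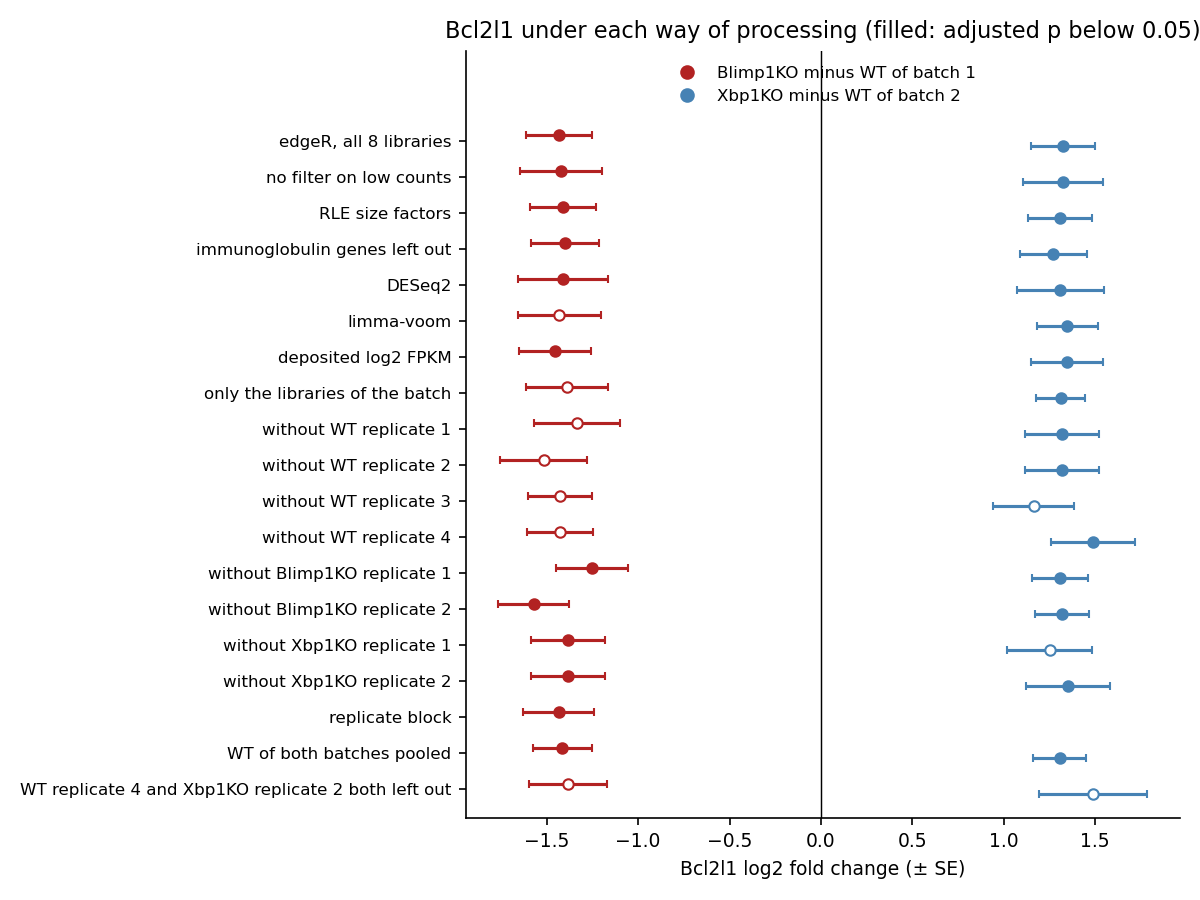
Bcl2l1 log2 fold change ± SE (x axis) in Blimp1-/- and Xbp1-/- against WT under each way of processing or left-out library (y axis), filled where the adjusted p is below 0.05. The Blimp1-/- values lie between -1.57 and -1.25 and the Xbp1-/- values between 1.16 and 1.49, so the sides of 0 do not mix although some points are open.

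Mcl1 (chromosome 3, 95656944 to 95663179; gene ID 17210), the survival member plasma cells are known to need, was at 391.5 and 403.3 CPM in batch 1 WT and 467.2 and 432.0 in Blimp1-/-. In batch 2 it was at 366.8 and 403.7 in WT and 489.3 and 414.9 in Xbp1-/-. Both knockout pairs lay above their WT pairs, but the differences were small beside their error: the log2 estimate was 0.18 ± 0.20 (adjusted p = 0.793) in Blimp1-/- and 0.23 ± 0.20 (adjusted p = 0.542) in Xbp1-/-. The estimates themselves differed by -0.05 ± 0.28 (adjusted p = 0.966), which does not show that the knockouts act alike.

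Bcl2 (chromosome 1, 106538176 to 106714290; gene ID 12043), the founding survival member, was at 56.1 and 44.8 CPM in batch 1 WT and 84.1 and 65.9 in Blimp1-/-. Those groups did not overlap, but the log2 estimate of 0.57 ± 0.22 was not called (adjusted p = 0.324). Bcl2 is 7749 bases long in the deposited table, in the long class that was lower in Blimp1-/- replicate 2. In batch 2, WT was at 83.7 and 73.4 CPM and Xbp1-/- at 81.4 and 60.1, which overlapped (log2 -0.15 ± 0.22, adjusted p = 0.742). Batch 2 WT thus reached the Blimp1-/- level of batch 1 (WT difference 0.64 ± 0.23, adjusted p = 0.139).

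Bcl2a1b (chromosome 9, 89199273 to 89207838; gene ID 12045) belongs to a cluster of near-identical A1 copies, so its own level is uncertain. It was at 4.90 and 5.10 CPM in batch 1 WT, 6.09 and 7.70 in Blimp1-/-, 2.01 and 1.95 in batch 2 WT, and 1.85 and 2.80 in Xbp1-/-. Its largest difference was between the WT pairs of the 2 batches (log2 -1.34 ± 0.28, adjusted p = 0.0590), which did not pass the threshold. The estimates were 0.46 ± 0.28 (adjusted p = 0.539) in Blimp1-/- and 0.23 ± 0.28 (adjusted p = 0.674) in Xbp1-/-. At 764 bases in the deposited table, Bcl2a1b is in the short class that was higher in Blimp1-/- replicate 2. Against all 4 WT libraries pooled, the Blimp1-/- estimate was 1.13 (adjusted p = 0.0370) and the Xbp1-/- estimate -0.43 (adjusted p = 0.253). With the counts of the A1 copies summed they were 0.80 (adjusted p = 0.242) and 0.32 (adjusted p = 0.534). On the annotation, 49.08% of its exonic bases are shared with the predicted gene Gm29094 on the same strand.

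Of the effectors, Bak1 rose in Xbp1-/- and Bax did not pass the test. Bak1 (chromosome 17, 27019812 to 27028627; gene ID 12018) was at 12.8 and 13.5 CPM in batch 2 WT and 25.2 and 23.6 in Xbp1-/-, a 1.85-fold rise (log2 0.89 ± 0.17, adjusted p = 0.0251). The batch 2 WT pair was also the lowest of the 4 groups: Bak1 was at 20.2 and 23.0 in batch 1 WT and 20.8 and 27.1 in Blimp1-/-, where the estimate was 0.15 ± 0.17 (adjusted p = 0.799). Batch 2 WT lay below batch 1 WT by -0.71 ± 0.17 (adjusted p = 0.0726), and against all 4 WT libraries pooled the Xbp1-/- estimate was 0.53 (adjusted p = 0.0407). The difference between the knockout effects on Bak1 was -0.74 ± 0.24 and was not called (adjusted p = 0.177). Of its exonic bases, 25.51% are shared with Ggnbp1 on the opposite strand, and whether counting used strand is not given in the sources used here.

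Bax (chromosome 7, 45461695 to 45466903; gene ID 12028) was at 15.8 and 14.4 CPM in batch 2 WT and 27.9 and 29.4 in Xbp1-/-. The groups did not overlap, yet its log2 estimate of 0.92 ± 0.23 missed the threshold (adjusted p = 0.0554). Batch 2 WT lay below batch 1 WT (-0.64 ± 0.23, adjusted p = 0.137). Over 17 alternatives the Xbp1-/- estimate stayed between 0.60 and 0.99, and Bax was called in 5 of them. It was called with DESeq2 (0.91, adjusted p = 0.00997), with no filter on low counts (0.92, 0.00862), with the batch 2 libraries alone (0.91, 0.0194), and without Blimp1-/- replicate 1 (0.90, 0.00869) or 2 (0.92, 0.00483). In batch 1, Bax was at 23.9 and 23.3 in WT and at 25.4 and 41.3 in Blimp1-/-, where the 2 replicates differed more than the groups (0.50 ± 0.22, adjusted p = 0.394). Bax has a gene length of 869 bases in the deposited table, within the short class that was higher in Blimp1-/- replicate 2. Without Blimp1-/- replicate 1 the estimate was 0.85 (adjusted p = 0.0318), and without replicate 2 it was 0.11, so the level of Bax in Blimp1-/- rested on replicate 2.

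Bid (chromosome 6, 120893119 to 120917062; gene ID 12122), the BH3-only protein that caspase-8 cleaves, was the called BH3-only member. It was at 17.0 and 15.8 CPM in batch 2 WT and 34.5 and 28.8 in Xbp1-/-, a 1.93-fold rise (log2 0.95 ± 0.16, adjusted p = 0.0184). In batch 1 it was at 21.5 and 22.3 in WT and 35.5 and 29.3 in Blimp1-/-, also without overlap (0.57 ± 0.16), but that difference did not pass (adjusted p = 0.174). Against the 4 WT libraries pooled it did (0.77, adjusted p = 0.0224). The knockout effects on Bid differed by -0.38 ± 0.22 (adjusted p = 0.482), so a difference between the knockouts was not shown. On the annotation 17.69% of the exonic bases of Bid lie opposite Bcl2l13. The log2 estimate of Bcl2l13 was 0.16 ± 0.13 in Xbp1-/- (adjusted p = 0.517) and -0.28 ± 0.13 in Blimp1-/- (adjusted p = 0.407).

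The Xbp1-/- calls of Bak1 and Bid were close to the threshold. Both were lost without WT replicate 1 (Bak1 adjusted p = 0.0662, Bid 0.0568), WT replicate 2 (0.0658 and 0.0556), WT replicate 3 (0.161 and 0.118) and WT replicate 4 (0.141 for each). They were also lost without Xbp1-/- replicate 1 (0.132 and 0.119), without Xbp1-/- replicate 2 (0.0876 and 0.0538), and with WT replicate 4 and Xbp1-/- replicate 2 both left out (0.288 and 0.240). The Bak1 estimate stayed between 0.53 and 0.97 and the Bid estimate between 0.74 and 1.10 over the 17 alternatives.

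Bmf (chromosome 2, 118528757 to 118549686; gene ID 171543), the BH3-only member with GAAAGTG matches before 1 internal start, had the lowest estimate of the 10 in Xbp1-/-. It was at 43.9 and 27.1 CPM in batch 2 WT and 18.4 and 16.0 in Xbp1-/-, without overlap, and the log2 estimate of -1.04 ± 0.31 was not called (adjusted p = 0.0932). Over 17 alternatives the estimate stayed between -1.36 and -0.66, and Bmf was called in 4 of them. It passed with DESeq2 (-1.06, adjusted p = 0.0130), with no filter on low counts (-1.04, 0.00941), and without Blimp1-/- replicate 1 (-1.06, 0.0496) or 2 (-1.05, 0.0401). In Blimp1-/- it was at 32.5 and 19.7 against 32.3 and 26.7 in WT (-0.18 ± 0.31, adjusted p = 0.888), and the effects differed by 0.86 ± 0.43 (adjusted p = 0.400). Bmf is 4633 bases long in the deposited table, in the long class that was lower in Blimp1-/- replicate 2; without that replicate the estimate was 0.14.

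Bcl2l11 (chromosome 2, 128126038 to 128162547; gene ID 12125) encodes BIM, which binds all survival members. Its WT libraries lay close together, at 27.4, 29.5, 27.9 and 23.3 CPM in replicates 1 to 4. It was at 28.6 and 24.0 in Blimp1-/- (log2 -0.11 ± 0.16, adjusted p = 0.854) and at 32.2 and 31.0 in Xbp1-/- (0.30 ± 0.16, adjusted p = 0.298). The Xbp1-/- pair lay above its WT pair, and the Blimp1-/- pair overlapped its own. At 5037 bases in the deposited table, Bcl2l11 is in the long class that was lower in Blimp1-/- replicate 2.

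Pmaip1 (chromosome 18, 66458604 to 66465558; gene ID 58801) encodes NOXA, the selective partner of MCL1 and A1. It was at 20.1 and 13.3 CPM in batch 1 WT, 21.9 and 14.5 in Blimp1-/-, 11.8 and 8.26 in batch 2 WT, and 12.7 and 10.7 in Xbp1-/-. Knockout and WT overlapped in both batches, with estimates of 0.12 ± 0.30 (adjusted p = 0.932) and 0.23 ± 0.30 (adjusted p = 0.706). Replicates within a group differed more than the groups.

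Across the family, 7 of 10 estimates were above 0 in Blimp1-/- (median log2 0.16, against -0.01 over all genes) and 8 of 10 in Xbp1-/- (0.27 against 0.08). At an unadjusted p below 0.05 there were 3 members in Blimp1-/-, where 13.9% of all genes were, and 5 in Xbp1-/-, where 23.6% were. Knockout lay above WT without overlap for 5 members in Blimp1-/- (20.9% of all genes) and 6 in Xbp1-/- (31.8%), and below for Bcl2l1 in Blimp1-/- (22.1%) and Bmf in Xbp1-/- (25.8%). By role, the median in Xbp1-/- was 0.23 for the 4 survival members, 0.91 for the 2 effectors and 0.26 for the 4 BH3-only members, and in Blimp1-/- it was 0.32, 0.32 and 0.00. Between the WT pairs no member was called, where 2.81% of all genes were (1.96% higher and 0.843% lower), but 8 of 10 estimates were below 0 in batch 2 (median -0.28 against -0.02) and 6 had an unadjusted p below 0.05, where 27.1% of all genes did. Batch 2 WT lay below batch 1 WT without overlap for 5 members (35.3% of all genes) and above for Bcl2 (32.3%). The 6 were Bcl2a1b, Bak1, Bax, Bcl2, Bid and Pmaip1, and batch cannot be told apart from the samples it holds.

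Among the 4 listed survival members, Mcl1 held most of the transcript in every library. These sums leave out Bcl2l2, a further survival gene, at a mean of 6.63 RPKM in batch 1 WT and 4.66 in Blimp1-/-. Bcl2l2 was at 7.02 RPKM in batch 2 WT and 4.25 in Xbp1-/-. Mcl1 made up 84.3% to 87.5% of the summed RPKM of the 4 survival members, which was 131 and 132 in batch 1 WT, 154 and 144 in Blimp1-/-, 122 and 133 in batch 2 WT, and 164 and 141 in Xbp1-/-. The share of Bcl2l1 was 3.57% and 3.12%, then 0.96% and 1.24% in Blimp1-/-, and 3.11% and 3.61%, then 6.55% and 7.61% in Xbp1-/-. Set against Mcl1 alone, Bcl2l1 was at 4.16% and 3.56% of its RPKM in batch 1 WT and 1.10% and 1.44% in Blimp1-/-. In batch 2 the same ratio was 3.62% and 4.13% in WT and 7.66% and 9.03% in Xbp1-/-, so the WT pairs overlapped each other and neither knockout pair overlapped them. These shares are descriptions of transcripts, and protein was not measured.

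The effector and BH3-only transcripts summed to 69.0 and 66.7 RPKM in batch 1 WT and 79.3 and 91.0 in Blimp1-/-, and to 53.05 and 45.28 in batch 2 WT and 78.1 and 74.5 in Xbp1-/-. Bax was the largest part throughout, from 34.4% in WT replicate 3 to 52.2% in Blimp1-/- replicate 2. Bmf took 17.9% and 12.9% in batch 2 WT and 5.09% and 4.63% in Xbp1-/-, and 10.1% and 8.65% in batch 1 WT against 8.83% and 4.66% in Blimp1-/-. Bid took 16.9% and 18.5% in batch 2 WT and 23.3% and 20.4% in Xbp1-/-.

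**Figure D4:**
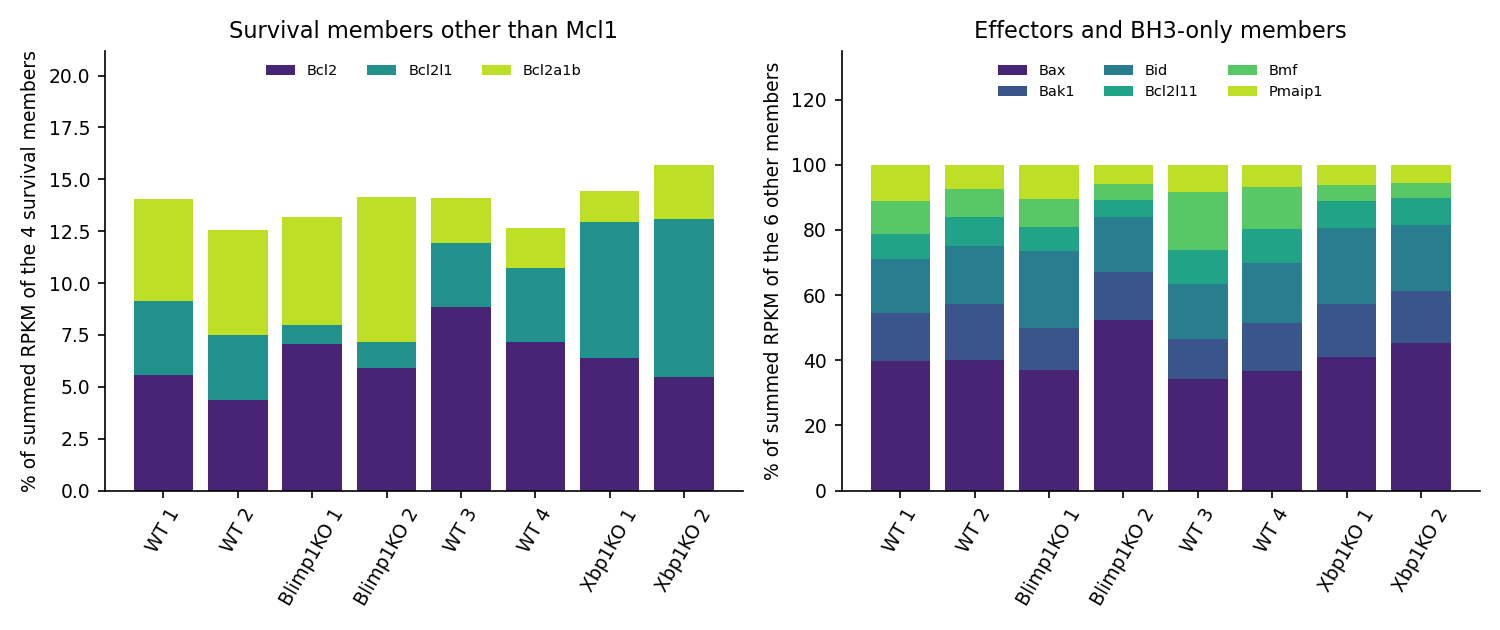
Share (%) of the summed RPKM that each member takes in each of the 8 libraries, in one panel for Bcl2, Bcl2l1 and Bcl2a1b among the 4 survival members and in the other for the 6 effector and BH3-only members. Bcl2l1 is between 0.96% and 1.24% in Blimp1-/- and between 6.55% and 7.61% in Xbp1-/-, and the share of Bmf is lowest in both Xbp1-/- libraries and Blimp1-/- replicate 2.

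The genes most like Bcl2l1, Mcl1 and Bcl2l11 were found by the smallest root mean square difference of centred log2 CPM over the 8 libraries, among 6958 genes. For Bcl2l1 the nearest was Alpl, tissue-nonspecific alkaline phosphatase, at a distance of 0.121. Alpl was at 28.6 and 25.2 CPM in batch 1 WT, 8.58 and 9.05 in Blimp1-/-, 22.1 and 22.8 in batch 2 WT, and 58.6 and 58.0 in Xbp1-/-, the same order of groups as Bcl2l1. It fell in Blimp1-/- (log2 -1.61, adjusted p = 0.0144) and rose in Xbp1-/- (1.38, adjusted p = 0.00317). The next were Slc43a3 (distance 0.277) and Hsd11b1 (0.305), a clear step further away. Mcl1 was nearest to Snx6 (0.046), Pnrc2 (0.053) and Zfp207 (0.061), and Bcl2l11 to Psmd1 (0.064), Cops2 (0.065) and Cenpq (0.066), genes whose levels likewise differed little between groups and were not called in either knockout. These distances were chosen as the smallest of many and carry no test. The group order and the calls of Alpl come from the same 8 libraries that picked it, so they are no separate support.

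Other genes of the same pathway were taken from 7 lists. In Blimp1-/-, none of the 66 tested genes on these lists was called (87 of all genes were called higher and 43 lower). In Xbp1-/-, 3 of the 66 rose and 1 fell, where 2.63% of all genes were called higher and 5.06% lower.

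The remaining survival members were Bcl2l2, Bcl2l10 and the other A1 copies, of which 3 of 5 were tested and none was called. Bcl2l2 (BCL-W) was at 23.9 and 22.0 CPM in batch 1 WT and 19.9 and 12.3 in Blimp1-/- (-0.51 ± 0.22, adjusted p = 0.377), and at 24.9 and 23.7 in batch 2 WT and 14.9 and 14.5 in Xbp1-/- (-0.73 ± 0.22, adjusted p = 0.101). Both pairs were below their WT, and neither difference passed the test. Bcl2a1d had an estimate of 1.65 ± 0.54 in Blimp1-/- (adjusted p = 0.234) and Bcl2a1a of 1.04 ± 0.63 in Xbp1-/- (adjusted p = 0.380), both on low counts and shared sequence.

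Of 11 further effector, BH3-only and atypical members, 9 were tested and none was called. Bcl2l14 (BCL-G) was at 0.136 and 0.084 CPM in batch 1 WT and 0.983 and 1.07 in Blimp1-/-, that is 6 and 4 counts against 72 and 81 (3.21 ± 0.65, adjusted p = 0.0813). Bcl2l13 was at -0.28 ± 0.13 in that knockout, and Bcl2l12 at 1.05 ± 0.36 (adjusted p = 0.129) and Bcl2l15 at 0.63 ± 0.32 (adjusted p = 0.295) in Xbp1-/-.

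Downstream of the membrane step, 15 apoptosome, caspase and inhibitor genes were tested. Endog, which encodes the mitochondrial endonuclease G, fell in Xbp1-/-, from 2.52 and 2.87 CPM to 0.770 and 0.485 (log2 -2.09 ± 0.44, adjusted p = 0.0360). It was the single called gene of the list, whose median was 0.21 against 0.08 over all genes. In Blimp1-/-, the caspase inhibitor gene Birc3 (0.62 ± 0.17, adjusted p = 0.161) and the protease gene Htra2 (-0.56 ± 0.20, adjusted p = 0.275) had the smallest p and did not pass.

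Genes known to act on MCL1 protein stability were not called in either knockout (6 of 8 tested). The ubiquitin ligase gene March5 was at 0.41 ± 0.14 (adjusted p = 0.135) and the deubiquitinase gene Usp9x at -0.51 ± 0.37 (adjusted p = 0.464) in Xbp1-/-. In Blimp1-/-, Btrc was at 0.35 ± 0.19 (adjusted p = 0.478) and Gsk3b at -0.31 ± 0.25 (adjusted p = 0.693).

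Among 17 transcription factors known to act on BCL2 family genes, Myc and Trp53 rose in Xbp1-/-. Trp53, which encodes p53, was at 21.5 and 23.5 CPM in WT and 46.5 and 39.5 in Xbp1-/- (0.94 ± 0.15, adjusted p = 0.0163). Myc was at 9.09 and 8.20 in WT and 16.0 and 15.9 in Xbp1-/- (0.88 ± 0.13, adjusted p = 0.0116). Batch 1 WT had a mean Myc of 13.9 CPM, and batch 2 WT lay below it (log2 -0.68 ± 0.13, adjusted p = 0.0483), a difference that was itself called. In Blimp1-/-, Trp53 was at 0.56 ± 0.15 (adjusted p = 0.162) and the stress response factor Atf4 at -0.68 ± 0.19 (adjusted p = 0.163). Of 10 p53 targets outside the family, Zmat3, which encodes an RNA-binding protein, rose in Xbp1-/- (15.4 and 14.6 CPM to 33.1 and 23.0; 0.90 ± 0.21, adjusted p = 0.0485), and 8 of the 10 estimates were above 0 (median 0.42 against 0.08). In Blimp1-/-, Trp53inp1 was at 448.5 and 447.8 CPM against 1047.9 and 1182.6 in WT (-1.32 ± 0.27, adjusted p = 0.0880) and Phlda3 at 1.39 ± 0.45 (adjusted p = 0.234), and none of the 10 was called.

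The 6 receptors that carry survival signals to plasma cells were not called in either knockout. Tnfrsf17 (BCMA) was at 159 and 200 CPM in batch 1 WT, 105 and 178 in Blimp1-/-, 109 and 79.2 in batch 2 WT, and 106 and 84.3 in Xbp1-/-, with overlap in both batches. The smallest p in Blimp1-/- belonged to Tnfrsf13b (TACI; -0.32 ± 0.21, adjusted p = 0.589) and Tnfrsf13c (BAFF receptor; -0.32 ± 0.23, adjusted p = 0.628). In Xbp1-/- they belonged to Cd28, a costimulatory receptor (0.60 ± 0.26, adjusted p = 0.233), and Tnfrsf13c (-0.45 ± 0.23, adjusted p = 0.292).

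**Figure D5:**
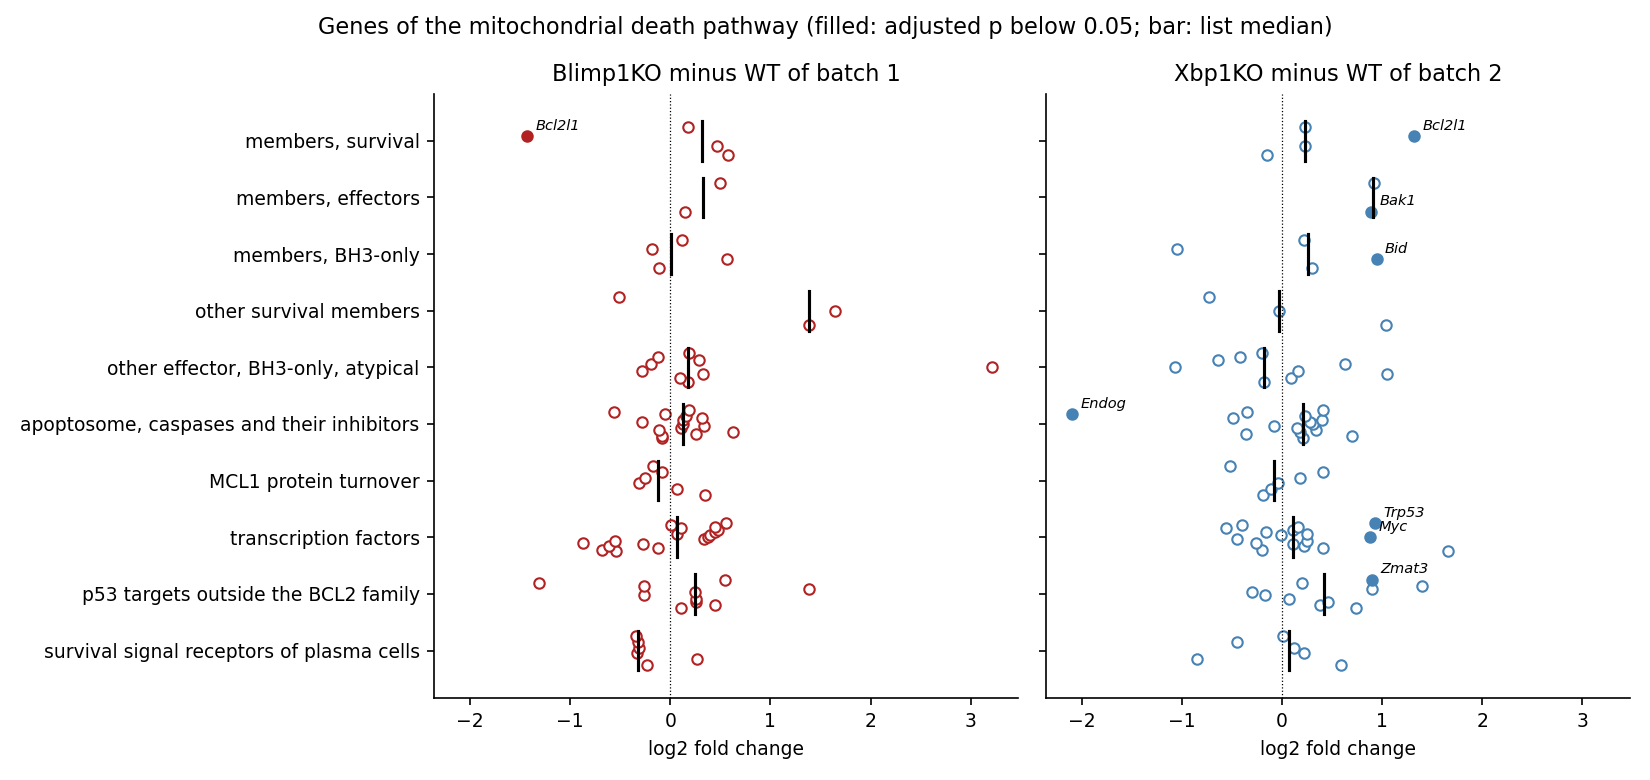
Log2 fold change of each tested gene (points) in the lists of the mitochondrial death pathway (y axis) for Blimp1-/- and Xbp1-/- against WT of the same batch; bars are list medians and filled points have an adjusted p below 0.05. Filled points number 1 in Blimp1-/- (Bcl2l1) and 7 in Xbp1-/- (Bcl2l1, Bak1, Bid, Endog, Myc, Trp53 and Zmat3).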

How the data were processed

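RNA-seq libraries of sorted mouse plasma cells were analysed from a table of raw counts per gene. The authors deposited counts per gene with gene lengths; Subread, featureCounts, limma and the builds GRCm38 and mm10 are named, per the submitters' processing notes. Versions and strand setting are not given in the sources used here. The deposited log2 values (log2 FPKM by the authors) were used for gene symbols, a check and 1 alternative: 4 files, those of batch 1 WT and Blimp1-/-, matched the count column of the other replicate of their group, so replicate numbers follow the counts, and RPKM computed from counts replaced them for levels between genes.

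Counts were tested with edgeR 4.0.16 (R 4.3.3): filterByExpr (minimum count 10; 15073 genes), TMM, 4 group means over all 8 libraries (4 residual degrees of freedom), quasi-likelihood test, Benjamini-Hochberg adjustment, called below 0.05. Errors of log2 fold changes are the estimate divided by the square root of F. Alternatives were RLE size factors, DESeq2 1.42.0, limma on the deposited log2 values, limma-voom 3.58.1, no filter, no immunoglobulin genes, batch libraries alone, pooled WT, summed A1 copies, a replicate block, each library left out, and a pair of batch 2 libraries left out. The fit was tested on simulated data. Rows with no symbol held 0.057% to 0.24% of counts.

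The members and gene lists were chosen with earlier results of these data known. Named genes were all members, the targeted genes, up to 4 called genes of each pathway list by p (or 2 uncalled), and the 3 genes nearest to Mcl1, Bcl2l1 and Bcl2l11. Symbols, positions and overlaps came from RefSeq (GRCm38.p6) and GENCODE M21.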

Additional observations from a re-analysis of the deposited data

Results flagged for a closer look

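The effect of Blimp1 loss on Bcl2l1 minus the effect of Xbp1 loss on it was -2.75 on the log2 scale (SE 0.25, adjusted p = 0.00943, edgeR interaction contrast over 8 libraries). It is listed because the effects of the knockouts, each against the 2 WT libraries of its batch, differed in a test of the difference itself. No other member passed that test. Groups of 2 libraries are too small to test a single library as an outlier.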

How the results depend on the processing

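With 2 libraries per group, counts of calls moved with most choices, while the sign of Bcl2l1 did not in any alternative run. Against 130 genes called in Blimp1-/-, 1160 in Xbp1-/- and 253 for the difference of effects, testing without the filter on low counts gave 517 in Blimp1-/- and 763 for the difference. DESeq2 gave 813, 2172 and 1156, and limma-voom gave 83 in Blimp1-/-. The batch 1 libraries alone gave 20 in Blimp1-/-, and pooling all WT libraries gave 937 in Blimp1-/- and 2850 in Xbp1-/-. Leaving out WT replicate 4 and Xbp1-/- replicate 2 together, chosen after seeing the data, gave 31, 59 and 2. Leaving out 1 library at a time gave 0 to 688 genes in Blimp1-/-, 225 to 2123 in Xbp1-/- and 3 to 598 for the difference. A lone library is then assumed to vary like the other groups.

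Members called in Blimp1-/- numbered 1, with 0 under limma-voom, 0 with batch 1 alone, 3 with pooled WT, 0 with both libraries left out, and 0 to 2 leaving out 1 library. In Xbp1-/- they numbered 3, with 5 without the filter, 5 with DESeq2, 0 with both left out, and 0 to 5 leaving out 1 library. For the difference they numbered 1, with 0 with both left out and 0 to 1 leaving out 1 library. Over the 10 members and 3 contrasts, 453 values kept direction and side of the threshold, 27 lost and 12 gained the call, and 21 reversed in sign, all of them uncalled.

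Reversals outside left-out libraries were the Mcl1 difference without immunoglobulin genes (0.0257), the Xbp1-/- effects against pooled WT on Bcl2 (0.17), Bcl2a1b (-0.43) and Pmaip1 (-0.14), and, with both libraries left out, Bcl2a1b in Xbp1-/- (-0.12) and the Pmaip1 difference (0.0649). Leaving out 1 library gave ranges across 0 in Blimp1-/- for Pmaip1 (-0.16 to 0.46), Bak1 (-0.0509 to 0.38), Bcl2l11 (-0.20 to 0.0139) and Bmf (-0.54 to 0.14). The same held in Xbp1-/- for Bcl2 (-0.46 to 0.0761), Bcl2a1b (-0.0655 to 0.43) and Pmaip1 (-0.0127 to 0.50), and for the differences of Mcl1 (-0.15 to 0.19) and Pmaip1 (-0.38 to 0.24). The cause of these changes was not tested.

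Batch 1 WT and Blimp1-/- share replicate numbers 1 and 2, and the labels do not say whether equal numbers mark pairs. Same-numbered deviations correlated at 0.218 over 15073 genes. With the replicate block, 89 genes were called in Blimp1-/- and 178 for the difference, and Bcl2l1 was at -1.43 (adjusted p = 0.0479). For Xbp1-/- against batch 2 WT no paired analysis was run. The sample titles of these groups share no replicate number, but the names of their deposited files number each group 1 and 2. The neutrophil and erythroid marker sums of batch 2 split by those same numbers. Whether the numbers mark pairs is not stated, and the effect of such a pairing on the Xbp1-/- results was not tested. Depth limited Bcl2a1b (135 to 583 counts) and Bcl2l14 more than the other members.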
